A study of Rattus norvegicus with 6 samples.

Results

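The SNARE and Rab exocytosis machinery was examined in RBL-2H3, a line from a rat basophilic leukaemia that serves as a mast cell model. The list held 39 genes, chosen by name and with earlier results of these data known. Of these, 38 were measured among the 14506 genes that the array annotation names by a single symbol. Rab37 was not analysed here. For each gene the probe set of highest mean over the arrays was used, and only Snap23 and Rab5a had more than 1 probe set. All cells stably overexpressed wild-type Dectin-1, which binds fungal beta-glucans at the cell surface and signals through the kinase Syk. The 3 groups were unstimulated control cells, cells given curdlan, an insoluble glucan that engages Dectin-1, and cells pretreated with the Syk inhibitor R406 and then stimulated with curdlan, with 2 arrays each. No group received R406 without curdlan, so an effect of the inhibitor on unstimulated cells cannot be told apart from a block of the curdlan response. The sources used here give neither doses nor times, nor whether the Dectin-1 line was a single clone. Nothing in the labels says that replicate arrays stand for separate cultures, so the p-values measure a spread between arrays that may be technical.

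Regulated exocytosis joins the membrane of a granule or vesicle to the plasma membrane. A vesicle SNARE (a VAMP) and target-membrane SNAREs (a syntaxin and a SNAP protein) zip into a bundle that pulls the membranes together, and the ATPase NSF with its SNAP adaptors later takes the bundle apart. Sec1/Munc18 and Munc13 proteins prepare the SNAREs, synaptotagmins and complexins tie fusion to calcium, Rab GTPases mark vesicles and recruit effectors, and the exocyst tethers vesicles to the plasma membrane. In mast cells this machinery releases granules that hold histamine, proteases and proteoglycan, with Snap23, Stx4, Vamp8, Stxbp2 and Unc13d among the best known parts. In people, loss of UNC13D, STX11, STXBP2, RAB27A or LYST impairs granule release in cytotoxic lymphocytes.

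Signals are the deposited log2 values of single probe sets. A change is a difference between 2 group means and is followed by its standard error (SE) from limma, fitted to all 29214 probe sets. A member was called where the Benjamini-Hochberg adjusted p, taken across that whole table, was below 0.05. Array medians lay between 7.204 and 7.241, and arrays of a group correlated at 0.9975 to 0.9981 over probe sets. The mast cell label was checked on marker genes: Fcer1a, Ms4a2, Fcer1g, Kit, Gata2, Hdc, Cpa3, Srgn, Slc18a2 and Cma1 had signals of 12.39 to 13.84 on every array, whereas the tryptase genes Tpsab1 and Tpsb2 and the serotonin-synthesis gene Tph1 had 5.98 to 7.18. Of these 13 markers 1 was called, Tph1, at 0.72 ± 0.0792 with curdlan and -0.69 ± 0.0792 under R406 against curdlan alone (limma adjusted p = 0.0295 and 0.0123), a larger change than that of any member. Of 17 measured markers of macrophages, lymphocytes, fibroblasts and epithelia, 0 were called in any of the 3 comparisons by limma, with signals from 3.81 to 9.55 (at an unadjusted p under 0.05, 1 was lower with curdlan and 2 in each comparison of R406 plus curdlan, all among the fibroblast and epithelial markers).

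Of the transcripts of the fusion machinery, 1 passed the test with curdlan against control. With R406 before curdlan, 7 passed against curdlan alone and 2 against control. Under R406 plus curdlan, 7 of 38 members (18.4%) were higher than with curdlan alone, against 4.02% of all probe sets, and 0 were lower, against 3.23%. The 7 were Stxbp3, Stx11, Cplx2, Stx3, Lyst, Syt11 and Exoc1. With curdlan, 1 member of 38, Exoc8, rose and 0 fell, against 1.04% and 0.551% of all probe sets. Against unstimulated cells, Stx11 and Stxbp3 were higher under R406 plus curdlan, and 0 members were lower, against 1.44% and 0.791%. The largest change of any member was 1.38-fold.

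**Figure D1:**
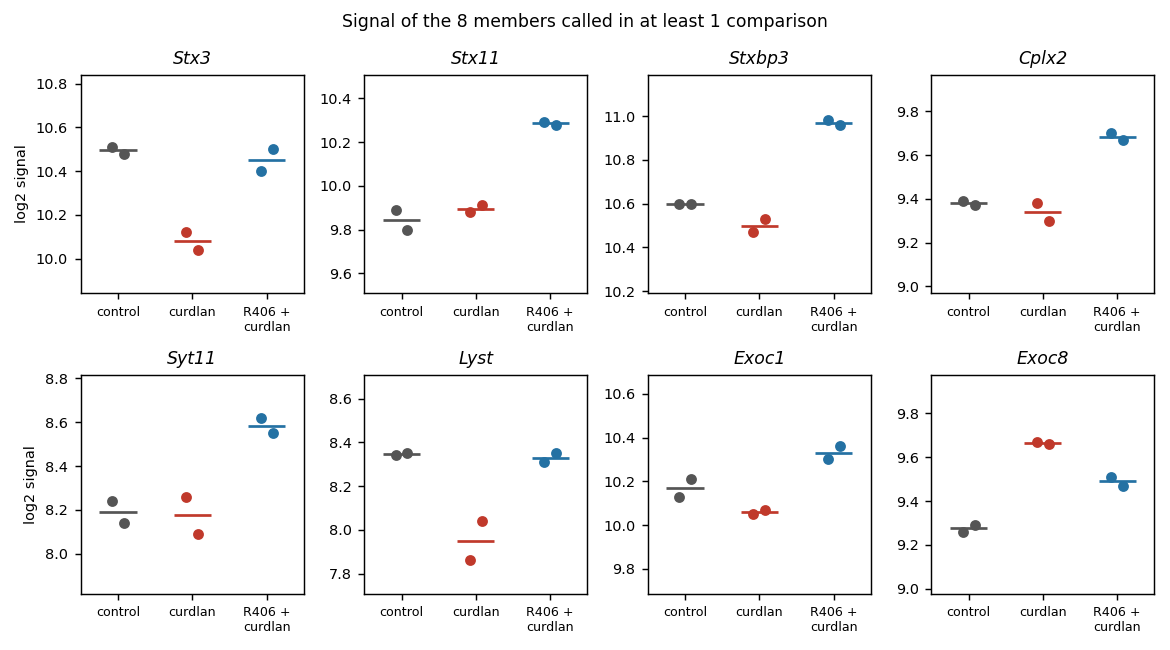
Log2 signal (vertical axis, a span of 1 log2 unit in each panel) of the 8 members called in at least 1 comparison, by group. Each dot is an array and each line the mean of 2 arrays: Stx3 and Lyst sit lower with curdlan than in both other groups, Stx11, Stxbp3, Cplx2, Syt11 and Exoc1 sit highest under R406 plus curdlan, and Exoc8 sits highest with curdlan.

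The sequences just around the gene starts are shown for 6 of these genes: Stxbp3 and Stx11, called against both other groups under R406, Stx3 and Lyst, whose signals were lowest with curdlan, Exoc1 of the exocyst, called under R406, and Exoc8, the only member called with curdlan. They are RefSeq promoter windows of the build GRCr8, from 250 bases before the gene start to 50 bases from it on, 5′ to 3′ on the strand of the gene. Capitals mark matches on either strand to 6 motifs: the E-box CACGTG, the forkhead motif GTAAACA, the AP-1 motif TGANTCA, the cAMP response element core TGACGTC, the ETS motif CCGGAAG and the GC box GGGCGG. No motif contains another.
Stxbp3 (chr2:199173774-199174073, minus strand): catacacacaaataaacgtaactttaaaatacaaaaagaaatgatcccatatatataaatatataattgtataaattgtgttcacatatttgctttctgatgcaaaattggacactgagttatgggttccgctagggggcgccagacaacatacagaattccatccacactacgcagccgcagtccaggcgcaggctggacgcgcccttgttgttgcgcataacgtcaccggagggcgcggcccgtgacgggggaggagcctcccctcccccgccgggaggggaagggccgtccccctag
Stx11 (chr1:9140170-9140469, minus strand): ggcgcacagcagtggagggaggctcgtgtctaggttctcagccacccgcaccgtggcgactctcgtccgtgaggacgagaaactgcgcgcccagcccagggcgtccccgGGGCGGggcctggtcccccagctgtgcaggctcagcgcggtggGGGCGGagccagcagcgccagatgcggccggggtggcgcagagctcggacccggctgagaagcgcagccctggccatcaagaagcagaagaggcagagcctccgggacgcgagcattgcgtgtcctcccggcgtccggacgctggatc
Stx3 (chr1:218110417-218110716, minus strand): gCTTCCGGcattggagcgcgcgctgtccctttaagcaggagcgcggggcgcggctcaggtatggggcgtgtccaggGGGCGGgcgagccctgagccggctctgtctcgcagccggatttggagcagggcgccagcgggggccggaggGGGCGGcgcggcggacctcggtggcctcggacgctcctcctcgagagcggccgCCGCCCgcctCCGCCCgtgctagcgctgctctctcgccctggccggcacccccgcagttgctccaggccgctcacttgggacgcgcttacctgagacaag
Lyst (chr17:93225290-93225589, plus strand): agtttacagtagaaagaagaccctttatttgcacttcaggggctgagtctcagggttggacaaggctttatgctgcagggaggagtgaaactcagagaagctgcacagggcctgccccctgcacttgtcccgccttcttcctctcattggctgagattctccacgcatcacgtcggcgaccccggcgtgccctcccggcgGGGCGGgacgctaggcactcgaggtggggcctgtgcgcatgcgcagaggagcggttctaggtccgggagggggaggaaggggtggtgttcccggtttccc
Exoc1 (chr14:32014078-32014377, minus strand): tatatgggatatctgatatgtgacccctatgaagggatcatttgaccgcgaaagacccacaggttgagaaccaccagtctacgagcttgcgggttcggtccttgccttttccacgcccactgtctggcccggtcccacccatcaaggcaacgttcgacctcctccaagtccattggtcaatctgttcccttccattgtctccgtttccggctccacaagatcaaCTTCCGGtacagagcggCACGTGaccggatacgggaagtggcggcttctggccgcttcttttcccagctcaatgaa
Exoc8 (chr19:69754827-69755126, minus strand): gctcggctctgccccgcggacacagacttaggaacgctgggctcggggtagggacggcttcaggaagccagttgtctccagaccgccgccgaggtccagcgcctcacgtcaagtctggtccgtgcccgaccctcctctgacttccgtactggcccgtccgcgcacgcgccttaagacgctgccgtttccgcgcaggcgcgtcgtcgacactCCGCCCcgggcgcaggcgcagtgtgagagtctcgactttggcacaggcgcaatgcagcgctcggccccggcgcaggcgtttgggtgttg

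Promoter windows were found for 35 of the 38 members. The GC box was in 26 of the 35 member windows (74.3%), against 50.1% of the 12519 windows of genes named on the array and 33.1% of all 33469 windows. The E-box was in 7 of 35 (20%), against 7.76% and 6.42%, and its 7 holders were Napa, Rab5a, Nsf, Snap29, Stxbp2, Stx6 and Exoc1. The ETS motif was in 7 of 35 (20%), against 12.9% and 8.75%, with Stx3, Syt11 and Exoc1 among its holders. The forkhead motif was in 0 of 35 windows, against 2.92% and 3.78%, AP-1 in 1 (Rab27b), against 6.28% and 7.33%, and the cAMP response element core in 1 (Napa), against 4.31% and 3.22%. Members had a median GC content of 63.0%, against 58.0% for genes named on the array, while the 7 members called under R406 had a median of 54.7%. Of the 7 members called under R406, 5 windows held a GC box, 3 an ETS motif and 1 an E-box, while the Stxbp3 window held none of the 6. In the Exoc1 window the E-box begins at position -9 and the ETS match at -26 from the gene start. These are matches of letters in a window of 300 bases and were set against no measurement of binding.

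Curdlan was set against control to see which transcripts Dectin-1 stimulation moves. Exoc8 (probe set 10811947), a subunit of the exocyst, had signals of 9.26 and 9.29 in control, 9.67 and 9.66 in curdlan, and 9.51 and 9.47 in R406 plus curdlan arrays. Both curdlan arrays lay above all others, and both R406 arrays lay between the other groups. Its rise with curdlan was 0.38 ± 0.0455 log2 units, a 1.31-fold change (limma, Benjamini-Hochberg adjusted p = 0.0346). Over all probe sets, 1.59% were called with curdlan, 1.04% higher and 0.551% lower (1.89% and 1.03% of those above the median signal), so 1 call among 38 members was close to the background. Without any 1 of the 6 arrays its change stayed between 0.37 and 0.40 but did not pass (adjusted p 0.123 to 0.178), nor did it in the fit of the 4 arrays compared (adjusted p = 0.123).

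Stx3 and Lyst had the lowest changes with curdlan, and neither passed. Stx3 (probe set 10728960) encodes a syntaxin of granule and plasma membranes, and its signals were 10.51 and 10.48 in control, 10.12 and 10.04 in curdlan, and 10.40 and 10.50 in R406 plus curdlan arrays. The curdlan arrays lay below all others, while control and R406 arrays overlapped. The change with curdlan was -0.41 ± 0.0592 (95% interval -0.57 to -0.26, limma adjusted p = 0.0507), and the signal rose under R406 against curdlan by 0.37 ± 0.0592, or 1.29-fold (adjusted p = 0.0296). Lyst (probe set 10798964) encodes a large protein that controls the size of lysosomes and secretory granules, with signals of 8.34 and 8.35 in control, 7.86 and 8.04 in curdlan, and 8.31 and 8.35 in R406 plus curdlan arrays. Here too the curdlan arrays were the lowest and the other groups overlapped. Its change was -0.40 ± 0.0728 with curdlan (limma adjusted p = 0.0861) and 0.38 ± 0.0728 under R406 (adjusted p = 0.0445). With an intensity trend in the variance model, both Stx3 and Lyst were called lower with curdlan (adjusted p = 0.0035 and 0.0247). Each passed so in 2 of 7 alternative fits, and not in that of the 4 arrays compared (adjusted p = 0.128 and 0.207). Without any 1 of the 6 arrays the changes with curdlan were -0.45 to -0.37 for Stx3 and -0.49 to -0.30 for Lyst. Their calls under R406 were lost in the fit of the 4 arrays compared (adjusted p = 0.068 and 0.0937) and without any 1 of the 6 arrays (0.068 to 0.172 for Stx3, 0.0509 to 0.221 for Lyst), where the changes ran from 0.32 to 0.42 and from 0.29 to 0.48. Against control, the R406 plus curdlan signals differed by -0.04 ± 0.0592 for Stx3 and -0.01 ± 0.0728 for Lyst (adjusted p = 0.715 and 0.941).

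Over all members, the changes with curdlan had a median of -0.046, against -0.011 over all probe sets and -0.012 over the 14607 probe sets above the median signal, where 36 of the 38 members lay. In 18 members both curdlan arrays lay below both control arrays (47.4%, against 23.9% of all probe sets and 29.4% of the brighter ones), and in 5 they lay above (13.2%, against 19.2% and 22.9%). At an unadjusted p under 0.05, 7 members were lower and 1 was higher, against 7.26% and 7.16% of all probe sets (1406 and 1477 of the 14607 brighter ones). Besides Stx3 and Lyst, the 7 were Rab3a, Rab27a, Napg, Rab5a and Rab27b, at -0.23 ± 0.0596, -0.16 ± 0.0532, -0.16 ± 0.0501, -0.14 ± 0.0487 and -0.12 ± 0.0445, with limma adjusted p between 0.183 and 0.31. In bulk RNA, fewer cells with a transcript and less of it per cell cannot be told apart.

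**Figure D2:**
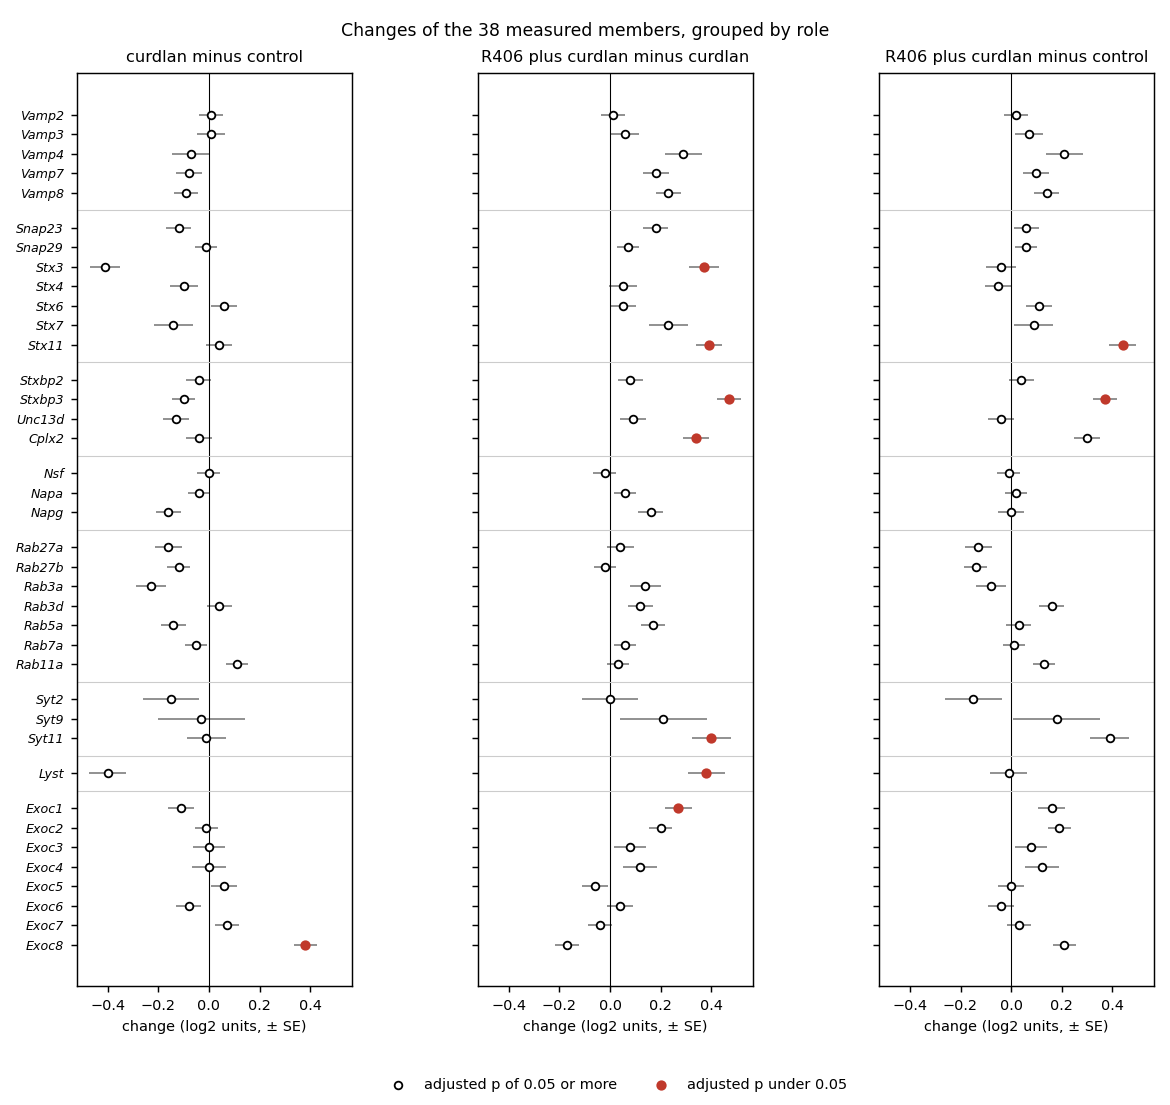
Changes in log2 units (horizontal axis, dot with SE) of the 38 measured members in the 3 comparisons, with lines between role groups. Filled dots are called: Exoc8 with curdlan, 7 members under R406 against curdlan alone, and Stx11 and Stxbp3 under R406 against control.

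The second comparison addressed how these levels differ with R406 given before stimulation, with curdlan alone as the reference. The share of all probe sets called was 7.25%, with 4.02% higher and 3.23% lower, and of the brighter probe sets 7.05% were higher and 5.59% lower. The 18.4% of members called higher lay above both shares of higher calls. Both R406 arrays lay above both curdlan arrays in 27 members (71.1%), against 27.7% of all probe sets and 39.5% of the brighter ones. They lay below in 2 members, Exoc7 and Exoc8 (5.3%), against 25.6% and 26.8%. The median change of the members was 0.104, against -0.002 over all probe sets and 0.019 over the brighter ones. At an unadjusted p under 0.05, 15 members were higher and 1, Exoc8 at -0.17 ± 0.0455, was lower, against 12.3% and 9.78% of all probe sets. Of the 14607 brighter ones, 2775 were higher and 1798 lower, a larger share for the higher ones than over all. With fewer arrays limma called fewer members: 2 members without control replicate 1 or 2, 1 without curdlan replicate 2, and 0 without curdlan replicate 1 or without either R406 plus curdlan array. Each of these fits has 2 residual degrees of freedom, and a group left with 1 array is assumed to vary like the other groups, so a lost call alone is no measure of a smaller change. The fits without a control array gave the same values as the fit of the 4 arrays compared, so they are not separate checks.

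**Figure D3:**
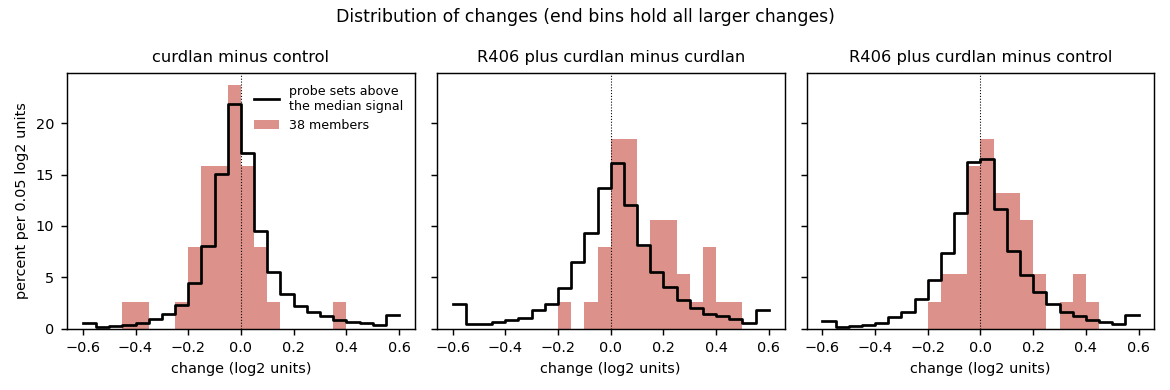
Distribution of changes in the 3 comparisons, as percent of features per 0.05 log2 units (vertical axis) against the change in log2 units (horizontal axis). Bars are the 38 members and the line is all 14607 probe sets above the median signal: under R406 against curdlan alone the members' median of 0.104 lies to the right of the line's 0.019.

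Among the SNARE regulators, Stxbp3 (probe set 10826097) had the largest change under R406 of all members. It encodes a Munc18 protein that binds plasma membrane syntaxins such as Stx4. Its signals were 10.60 and 10.60 in control, 10.47 and 10.53 in curdlan, and 10.98 and 10.96 in R406 plus curdlan arrays. The R406 arrays lay well above both other groups. The rise over curdlan alone was 0.47 ± 0.0462, a 1.38-fold change (limma adjusted p = 0.00859), and the rise over control was 0.37 ± 0.0462, a 1.29-fold change (adjusted p = 0.0317). The first of these passed in the fit of the 4 arrays compared (adjusted p = 0.0296). Without any 1 of the 6 arrays the change was 0.44 to 0.5, and it missed the threshold without curdlan replicate 1 or without either R406 plus curdlan array.

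Cplx2 (probe set 10797462) encodes a complexin, a small protein that clamps and promotes SNARE bundles. Its signals were 9.39 and 9.37 in control, 9.38 and 9.30 in curdlan, and 9.70 and 9.67 in R406 plus curdlan arrays. Control and curdlan arrays overlapped, and the R406 arrays lay above both. The rise over curdlan was 0.34 ± 0.051, a 1.27-fold change (limma adjusted p = 0.0238), and against control the change was 0.30 ± 0.051 (adjusted p = 0.0581). The call against curdlan was lost in the fit of the 4 arrays compared (adjusted p = 0.0574) and without any 1 of the 6 arrays (0.0574 to 0.147), with changes of 0.30 to 0.39. Stxbp2 and Unc13d, which encode the Munc18 and Munc13 proteins best known from mast cell granule release, did not pass in any comparison. Stxbp2 had signals of 12.20 and 12.24 in control, 12.15 and 12.21 in curdlan, and 12.25 and 12.26 under R406, and Unc13d had 10.00 and 10.07, 9.89 and 9.92, and 9.97 and 10.01. Under R406 against curdlan alone, the 95% intervals were -0.04 to 0.20 for Stxbp2 and -0.05 to 0.22 for Unc13d (limma adjusted p = 0.419 and 0.416). For Unc13d the control arrays lay above the curdlan arrays, with a change of -0.13 ± 0.0519 (adjusted p = 0.362).

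Of the 7 target-membrane SNARE genes, Stx11 and Stx3 rose under R406 over curdlan alone and 0 fell, against 4.02% and 3.23% of all probe sets. Stx11 (probe set 10716880) encodes a syntaxin that lacks a membrane-spanning segment and serves granule release in cytotoxic lymphocytes. Its signals were 9.89 and 9.80 in control, 9.88 and 9.91 in curdlan, and 10.29 and 10.28 in R406 plus curdlan arrays. Control and curdlan arrays overlapped, and both R406 arrays were higher. The rise was 0.39 ± 0.0518 over curdlan, a 1.31-fold change (limma adjusted p = 0.0179), and 0.44 ± 0.0518 over control, a 1.35-fold change (adjusted p = 0.0288). The call against curdlan was kept in the fit of the 4 arrays compared (adjusted p = 0.0353). Without any 1 of the 6 arrays the rise was 0.37 to 0.41, and the call was lost without any of the curdlan or R406 plus curdlan arrays. Snap23, the SNAP protein of mast cell plasma membranes, had signals of 11.81 and 11.75 in control, 11.66 and 11.67 in curdlan, and 11.86 and 11.83 under R406. The curdlan arrays were lowest and the R406 arrays highest, with changes of -0.12 ± 0.0484 and 0.18 ± 0.0484 (limma adjusted p = 0.37 and 0.104). Its second probe set had changes of 0.00 ± 0.0775 and 0.05 ± 0.0775. Stx4, the plasma membrane syntaxin that pairs with Snap23, had 9.95 and 9.84 in control, 9.78 and 9.80 in curdlan, and 9.83 and 9.86 under R406. Its control and R406 arrays overlapped, and its change under R406 was 0.05 ± 0.0551 (95% interval -0.09 to 0.19). The endosomal syntaxin genes Stx7 and Stx6 and the broadly acting Snap29 had changes of 0.23 ± 0.0771, 0.05 ± 0.052 and 0.07 ± 0.0439 and did not pass.

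Of the 5 vesicle SNARE genes, 0 passed in limma in any comparison. Under R406 against curdlan alone 3 were higher at an unadjusted p under 0.05 and 0 were lower, against 12.3% and 9.78% of all probe sets. Vamp8, a VAMP of secretory granules and late endosomes, had signals of 10.55 and 10.58 in control, 10.51 and 10.45 in curdlan, and 10.69 and 10.73 in R406 plus curdlan arrays. The 3 groups did not overlap, with curdlan lowest and R406 highest. Its change under R406 was 0.23 ± 0.0485 (limma adjusted p = 0.0599), and it was called with arrays centred on their median (adjusted p = 0.0477). Vamp4, which acts between the trans-Golgi and endosomes, and Vamp7, of late endosomes and lysosomes, had changes of 0.29 ± 0.0743 and 0.18 ± 0.0513 (adjusted p = 0.0975 and 0.113). Vamp2 and Vamp3, the VAMPs of recycling and synaptic-type vesicles, had 0.01 ± 0.0474 and 0.06 ± 0.0552, and their curdlan and R406 arrays overlapped.

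Syt11 was the only synaptotagmin gene called. Its product, unlike the calcium sensors of the family, does not bind calcium. Syt11 (probe set 10824349) had signals of 8.24 and 8.14 in control, 8.26 and 8.09 in curdlan, and 8.62 and 8.55 in R406 plus curdlan arrays. Control and curdlan arrays overlapped, and the R406 arrays were higher than both. The rise over curdlan was 0.40 ± 0.0773, a 1.32-fold change (limma adjusted p = 0.0453, and 0.0782 after quantile normalization), and the change against control was 0.39 ± 0.0773 (adjusted p = 0.0796). Without any 1 of the 6 arrays the rise over curdlan was 0.32 to 0.49 and did not pass (adjusted p 0.0756 to 0.207). Syt2 and Syt9, which encode calcium-binding synaptotagmins, were the 2 members below the median signal, with values between 5.88 and 6.56. Their changes under R406 were 0.00 ± 0.112 and 0.21 ± 0.172, and no detection call was used to tell whether they stood above background.

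**Figure D4:**
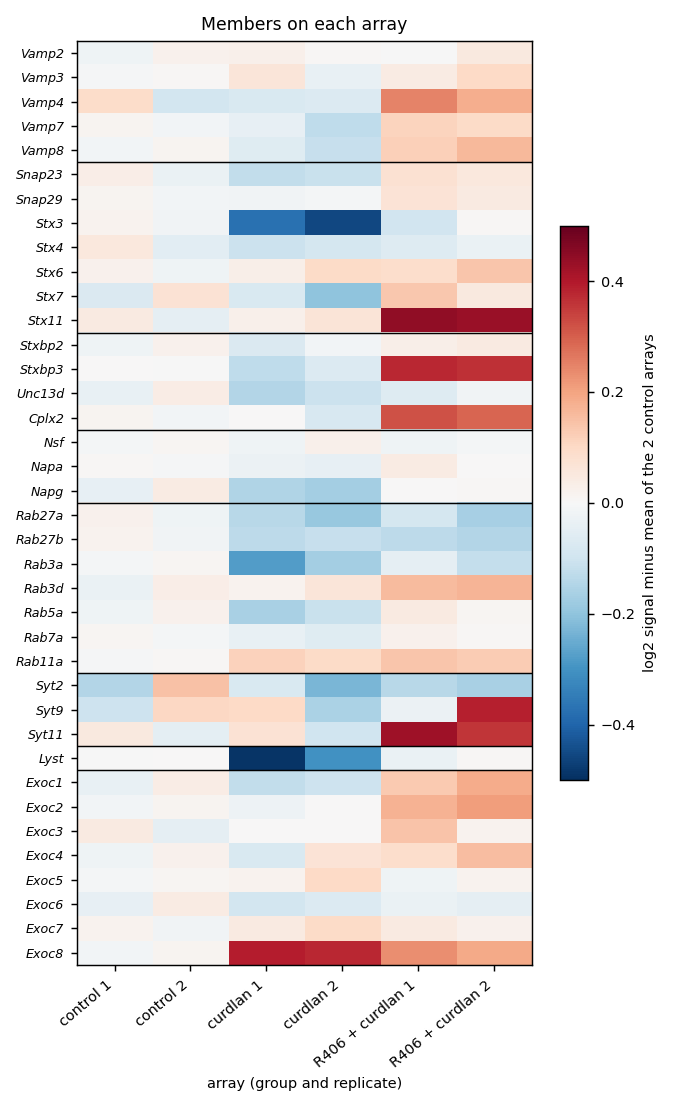
Each row is a member and each column an array. Colour gives the log2 signal minus the mean of the 2 control arrays, on a scale of -0.5 to 0.5, and lines divide the role groups. Stx3 and Lyst are darkest blue on both curdlan arrays, Exoc8 is red on them, and Stx11, Stxbp3, Cplx2 and Syt11 are red on both R406 plus curdlan arrays.

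Of the 7 measured Rab genes, 0 passed in limma in any comparison. At an unadjusted p under 0.05, 4 were lower with curdlan, and 1, the early endosome gene Rab5a, was higher under R406 than with curdlan alone. The shares over all probe sets were 7.26% and 12.3%. Rab27a, whose product docks secretory granules at the plasma membrane, had signals of 11.84 and 11.80 in control, 11.68 and 11.63 in curdlan, and 11.73 and 11.65 in R406 plus curdlan arrays. Its paralogue Rab27b had 11.40 and 11.36, 11.25 and 11.26, and 11.25 and 11.23. For both genes the control arrays were the highest, and the curdlan and R406 arrays overlapped. Against control, R406 plus curdlan signals were at -0.13 ± 0.0532 for Rab27a and -0.14 ± 0.0445 for Rab27b (limma adjusted p = 0.27 and 0.181). Rab3a and Rab3d, which encode Rabs of regulated secretion, had changes of -0.23 ± 0.0596 and 0.04 ± 0.0493 with curdlan. The endosomal genes Rab5a, Rab7a and Rab11a had changes of -0.14 ± 0.0487, -0.05 ± 0.0434 and 0.11 ± 0.0431 with curdlan and of 0.17 ± 0.0487, 0.06 ± 0.0434 and 0.03 ± 0.0431 under R406. The second probe set of Rab5a had -0.10 ± 0.0456 and 0.12 ± 0.0456.

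None of the 3 disassembly genes passed in limma, though Napg was lower with curdlan and higher under R406 at an unadjusted p under 0.05. Nsf had signals of 11.45 and 11.47 in control, 11.44 and 11.49 in curdlan, and 11.44 and 11.46 under R406, with groups that overlapped and a 95% interval of -0.13 to 0.10 under R406 against curdlan alone. The adaptor genes Napa and Napg had changes under R406 of 0.06 ± 0.0445 and 0.16 ± 0.0501, and neither passed (limma adjusted p = 0.521 and 0.143).

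Of the 8 exocyst genes, 1 was called with curdlan, Exoc8. Over all probe sets, 1.04% were called higher with curdlan and 4.02% under R406 against curdlan alone. Under R406 against curdlan alone, Exoc1 rose, 0 fell by the adjusted test (1, Exoc8, was lower at an unadjusted p under 0.05), and changes ran from -0.17 for Exoc8 to 0.27 for Exoc1. Exoc1 (probe set 10776395) had signals of 10.13 and 10.21 in control, 10.05 and 10.07 in curdlan, and 10.30 and 10.36 in R406 plus curdlan arrays. The 3 groups did not overlap, with R406 highest and curdlan lowest. The rise was 0.27 ± 0.0521, a 1.21-fold change (limma adjusted p = 0.046, and 0.0708 after quantile normalization), and against control it was 0.16 ± 0.0521 (adjusted p = 0.187). Without any 1 of the 6 arrays the rise over curdlan was 0.24 to 0.30 and did not pass (adjusted p 0.0727 to 0.244). Exoc2 had signals of 10.53 and 10.56 with curdlan and 10.73 and 10.77 under R406, a change of 0.20 ± 0.0455 (adjusted p = 0.0677). The other exocyst genes, Exoc3 to Exoc7, had changes between -0.06 and 0.12 under R406. Exoc1 and Exoc8 thus had changes of opposite sign in both the curdlan and the R406 comparison, -0.11 ± 0.0521 and 0.38 ± 0.0455 with curdlan, though the difference between the genes was not tested.

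Against unstimulated cells, R406 plus curdlan arrays had a share called of 2.23% over all probe sets, 1.44% higher and 0.791% lower. Of the 38 members 2 were higher (5.3%, against 2.51% of the brighter probe sets, of which 1.34% were lower), Stx11 and Stxbp3, and limma called 0 without any 1 of the 6 arrays. At an unadjusted p under 0.05, 11 were higher and 1, Rab27b, was lower, against 10.6% and 9.74% of all probe sets. Of the 14607 brighter ones, 2212 were higher and 1495 lower. The R406 arrays lay above the control arrays in 19 members (50%, against 25.7% of all probe sets and 34.8% of the brighter ones) and below in 3 (7.9%, against 27.8% and 27.7%). The median change was 0.060, against -0.010 over all probe sets and 0.008 over the brighter ones. This comparison shares its arrays with the other 2, so its values are not independent of them.

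Other genes of the pathway were taken from 6 lists of SNAREs, SNARE regulators, Rab effectors, Rabs, synaptotagmins and granule biogenesis genes, with 109 of 130 entries measured. With curdlan 0 of the 109 passed in limma, while 4 were higher and 12 lower at an unadjusted p under 0.05, against 7.16% and 7.26% of all probe sets. Under R406 against curdlan alone 8 rose (7.3%, against 4.02% of all probe sets and 7.05% of the brighter ones) and 1 fell. Only 78 of the 109 lay above the median signal, so the share of the brighter ones is not a like reference. Both R406 arrays lay above both curdlan arrays in 75.0% of other SNAREs and 70.6% of granule biogenesis genes, near the members' 71.1%. The share was 48.1% of other Rabs, 31.6% of Rab effectors, 21.4% of other SNARE regulators and 0.0% of other synaptotagmins, against 27.7% of all probe sets. In the last 3 lists they lay below in 52.6%, 35.7% and 33.3%, against 25.6% of all probe sets. Many genes of these 3 lists, and all synaptotagmins but Syt7, lay below the median signal of 7.222, whereas among other SNAREs only Snap25 did. Whether the shares follow the signal level was not tested. The median change of the 109 was 0.040. Of 20 other SNARE genes, 3 rose (15.0%, against 4.02% of all probe sets). Bet1l and Stx5, which act in Golgi traffic, rose by 0.64 ± 0.0472 and 0.39 ± 0.0446, and Vamp1, a VAMP of synaptic-type vesicles, by 0.39 ± 0.0675 (limma adjusted p = 0.00434, 0.0124 and 0.0345). Bet1l had signals of 10.04 and 10.10 in control, 9.77 and 9.80 in curdlan, and 10.44 and 10.41 under R406. Its 3 groups did not overlap, and it was also called against control, at 0.35 ± 0.0472 (adjusted p = 0.0378).

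Of 14 other SNARE regulators, Unc13a, a Munc13 gene known from synapses, fell by 0.47 ± 0.0734 under R406 (limma adjusted p = 0.0274). It had 8.80 and 8.82 in control, 9.03 and 9.22 in curdlan, and 8.65 and 8.66 under R406, so the curdlan arrays were highest. Of 19 Rab effectors and regulators, Rabif, which encodes a Rab-binding chaperone, and Sytl3, which encodes a Rab27-binding synaptotagmin-like protein, rose by 0.30 ± 0.05 and 0.25 ± 0.0487 (adjusted p = 0.0318 and 0.0478). Of 27 other Rab genes, Rab5b and Rab24 rose, at 0.27 ± 0.0451 and 0.23 ± 0.0444 (adjusted p = 0.032 and 0.0475). Of 17 genes of granule biogenesis and Lyst relatives, Bloc1s5, a subunit of the BLOC-1 complex of lysosome-related organelles, rose by 0.38 ± 0.0503 (adjusted p = 0.0187). Of 12 other synaptotagmin genes 0 passed, and 0 had an unadjusted p under 0.05 in this comparison, against 12.3% (higher) and 9.78% (lower) of all probe sets. The shares called higher were 10.5% of Rab effectors, 7.4% of other Rabs and 5.9% of granule biogenesis genes. Over all probe sets 4.02% were called higher and 3.23% lower, and of the brighter ones 7.05% and 5.59%. With so few calls, these lists are not set apart from those shares.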

How the data were processed

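Transcript levels were measured on 6 Affymetrix rat arrays, 2 per group. Each array has 1 deposited log2 signal for every probe set. Per the submitters' processing notes, Affymetrix Expression Console was used, and the sources used here do not give its version, its settings or a genome build. That the scale is log2 was inferred from the highest signals, 14.37 to 14.41. That the arrays had been normalized to each other was likewise inferred from the values. The number of arrays limits the precision, and no detection call was used.

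The table held 29214 probe sets and 0 columns of other samples. The platform annotation gave 1 symbol for 15310, several for 323 and none for 13581, and no gene was named from the last 2 kinds. All 38 member symbols equalled those of a RefSeq table of GRCr8. All probe sets of the 6 arrays were fitted in 1 model with 3 group means (R 4.3.3, limma 3.58.1, lmFit and eBayes), with 3 residual and 2.16 prior degrees of freedom, without filter or further normalization. Intervals are 95% intervals of this model. The model was first run on simulated data with known changes, as a check of the code and not of the calls given here. Array values are given for every called member and for Snap23, Stx4, Vamp8, Stxbp2, Unc13d, Rab27a and Lyst, and for some others chosen after their values were seen. Up to 4 called genes of each other list are named. The members, lists and motifs were chosen with earlier results of these data known. Alternatives were quantile normalization, median centring, bright probe sets only, the mean of a gene's probe sets, an intensity trend, the 4 arrays compared, a replicate block, and leaving out each array. Leaving out an array of the group not compared gives the same result as the fit of the 4 arrays compared.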

Additional observations from a re-analysis of the deposited data

How the results depend on the processing

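Among 7 alternatives and the 6 fits without 1 array, none of the 14 members refitted in each (the 8 called and Snap23, Stx4, Vamp8, Stxbp2, Unc13d and Rab27a) changed direction while called. The number of members called was 1 with curdlan, 7 under R406 against curdlan and 2 under R406 against control. In the same order it was 3 (1 higher and 2 lower), 15 (14 higher and 1 lower) and 8 (all higher) when only the brighter probe sets were tested, 3 (1 higher and 2 lower), 13 (all higher) and 8 (7 higher and 1 lower) with an intensity trend, and 0, 2 and 0 in the fit of the 4 arrays compared, which has fewer degrees of freedom. Without 1 array it was 0 with curdlan, 0 to 2 under R406 against curdlan and 0 against control. The median change without 1 array ran from -0.069 to -0.042 with curdlan, from 0.082 to 0.107 under R406 against curdlan and from 0.045 to 0.06 against control. It moved from 0.104 to 0.086 and 0.124, and from 0.06 to 0.044 and 0.085, after quantile normalization and median centring. The other genes of the pathway called under R406 against curdlan numbered 9, against 19 among bright probe sets, 20 with a trend, 3 in the fit of 4 arrays and 0 to 3 without 1 array, and with curdlan 0, against 6 among bright probe sets and 5 with a trend. Against control they numbered 1, against 11 in each of these 2 fits, 2 after centring, and 0 after quantile normalization, with 4 arrays or without any 1 array. Calls over all probe sets ran from 32 to 1572 around 465 with curdlan, from 210 to 3767 around 2118 under R406 against curdlan, and from 15 to 2341 around 652 against control. Beyond the degrees of freedom and the number of probe sets tested, the cause was not tested. Deviations of same-numbered arrays from their group means correlated at -0.11 between control and curdlan and at 0.11 between curdlan and R406 plus curdlan. Between control and R406 plus curdlan the correlation was about 0. With 2 arrays per group, these values cannot show whether same-numbered arrays share a culture, day or batch. With the replicate block 0, 4 and 0 members were called, and 0, 3 and 0 other genes of the pathway.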
